A study of Homo sapiens with 12 samples.

Results

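Transcript levels were examined for 10 genes of heme breakdown, heme synthesis and cellular iron handling: HMOX1, HMOX2, BLVRA, BLVRB, FTH1, FTL, BACH1, FECH, TFRC and SLC40A1. They were chosen by name, and all 10 were found among the 36482 gene symbols of the deposited count table. RNA came from TOV-112D, an ovarian adenocarcinoma line with mutant p53, and from Saos-2, an osteosarcoma line that lacks p53. TOV-112D cells were exposed for 3 h to the vehicle DMSO (n = 2 libraries), to UCI-1001 at 10 µM (n = 2) or to its analog UCI-1014 (n = 2), whose dose in the sequenced cultures is not given in the sources used here. Parental p53-null Saos-2 cells (n = 3) were set against p53-WT cells (n = 3), a stable lentiviral Saos-2 line with doxycycline-inducible wild-type p53. The labels give 16 h of induction for both. A difference between the engineered line and its parent that does not depend on p53 cannot be told apart from the p53 effect in this pair. The labels do not say that replicate libraries were separate cultures, so p-values measure only the spread between these libraries, which may be technical.

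Library totals lay between 17762027 and 24629558 counts. The p53 target CDKN1A averaged 64.7 CPM (counts relative to the TMM-scaled library size) in p53-null and 8336 CPM in p53-WT libraries. The labelled lineages were not borne out by the summed markers, since each list summed higher in the other line. By single genes, SPP1 was higher in Saos-2, and EPCAM and CDH1 were higher in TOV-112D. In Saos-2, 10 osteoblast-lineage markers summed to 27.1 to 28.5 CPM in p53-null and 42.9 to 51.0 CPM in p53-WT libraries, most of it RUNX2 (10.4 and 5.33 CPM) and SPP1 (14.9 and 39.1 CPM). ALPL and SPARC stayed under 0.6 CPM there and SP7 was at 0, while the keratins KRT8 and KRT18 averaged 203 and 539 CPM in p53-null cells. The osteoblast-lineage sum was 59.8 to 65.9 CPM in TOV-112D, most of it COL1A1 (group means of 48.3 to 51.8 CPM). In TOV-112D, the summed level of 9 epithelial and ovarian markers was 4.12 to 6.45 CPM, with KRT18 at 0 throughout. That sum was 724 to 784 CPM in p53-null and 847 to 1094 CPM in p53-WT libraries. Replicate 1 of each Saos-2 group stood apart from its 2 fellows, with a chi-square distance of 23.0 to 38.4 per degree of freedom against 3.07 and 3.79 between the other two replicates, so p53-WT results are also given without it, as a fit of replicates 2 and 3 alone.

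Heme is both a cofactor and a pro-oxidant, and cells dispose of it by cutting the ring open. Heme oxygenase, the inducible HMOX1 or the constitutive HMOX2, releases biliverdin, carbon monoxide and ferrous iron. Biliverdin reductases, encoded by BLVRA and BLVRB, reduce biliverdin to bilirubin. The freed iron is stored in ferritin, a shell of heavy (FTH1) and light (FTL) chains, or exported by ferroportin (SLC40A1), while transferrin receptor 1 (TFRC) brings iron in and ferrochelatase (FECH) inserts it into protoporphyrin. BACH1 is a heme-sensing repressor that sits with small MAF proteins on the antioxidant response elements of HMOX1 and the ferritin genes and competes there with NRF2.

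Part of this gene set is also controlled after transcription by iron-responsive elements, hairpins whose loop is bound by iron regulatory proteins when iron is scarce. Bound elements in the 5′ UTR block translation, and bound elements in the 3′ UTR of TFRC protect its mRNA. These sequences are shown because mRNA counts do not report the translational arm of that control. The canonical GENCODE transcripts (release 44, GRCh38) were searched for a C bulge, a 5-base stem with G-U pairs allowed, and the loop CAGTGN. A 5′ UTR loop was found in FTH1 (chr11:61967575-61967601, minus strand), in FTL (chr19:48965336-48965362, plus strand) and in SLC40A1 (chr2:189580662-189580688, minus strand). TFRC held 4 loops in its 3′ UTR, of which the most upstream is printed (chr3:196050980-196051006, minus strand). The other 6 genes had none, and among 19701 canonical coding transcripts 0.0964% held such a loop in the 5′ UTR and 0.614% in the 3′ UTR. The 6 loop bases are in capitals.
FTH1 5′ UTR: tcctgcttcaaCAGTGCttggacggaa
FTL 5′ UTR: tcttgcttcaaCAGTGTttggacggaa
SLC40A1 5′ UTR: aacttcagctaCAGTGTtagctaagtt
TFRC 3′ UTR: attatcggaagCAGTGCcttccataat

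HMOX1 (ENSG00000100292, chr22:35380361-35394214, plus strand) moved most among the 10 genes in both compound comparisons with DMSO. It stood at 34.2 and 34.4 CPM in the DMSO libraries. UCI-1001 libraries held 295 and 351 CPM, and UCI-1014 libraries 1229 and 1192 CPM. The 3 groups did not overlap and were ordered DMSO, UCI-1001, UCI-1014. In edgeR's quasi-likelihood test with Benjamini-Hochberg adjustment over all genes, HMOX1 was 9.42-fold higher with UCI-1001 than with DMSO (log2 fold change 3.24 ± 0.07 SE, adjusted p = 8.12e-13). The rise with UCI-1014 was 35.3-fold (log2 5.14 ± 0.07, adjusted p = 1.22e-15). Both comparisons share the same 2 DMSO libraries. Set directly against each other, UCI-1014 gave 3.75-fold more HMOX1 mRNA than UCI-1001 (log2 1.91 ± 0.06, adjusted p = 4.34e-11), and since the UCI-1014 dose is not given, compound and dose cannot be told apart. HMOX1 also rose in Saos-2 with wild-type p53, from 50.3, 48.0 and 55.9 CPM in p53-null libraries to 217, 189 and 200 CPM. This was a 3.94-fold rise (log2 1.98 ± 0.11, adjusted p = 4.73e-08), and without replicate 1 the log2 fold change was 1.91.

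**Figure D1:**
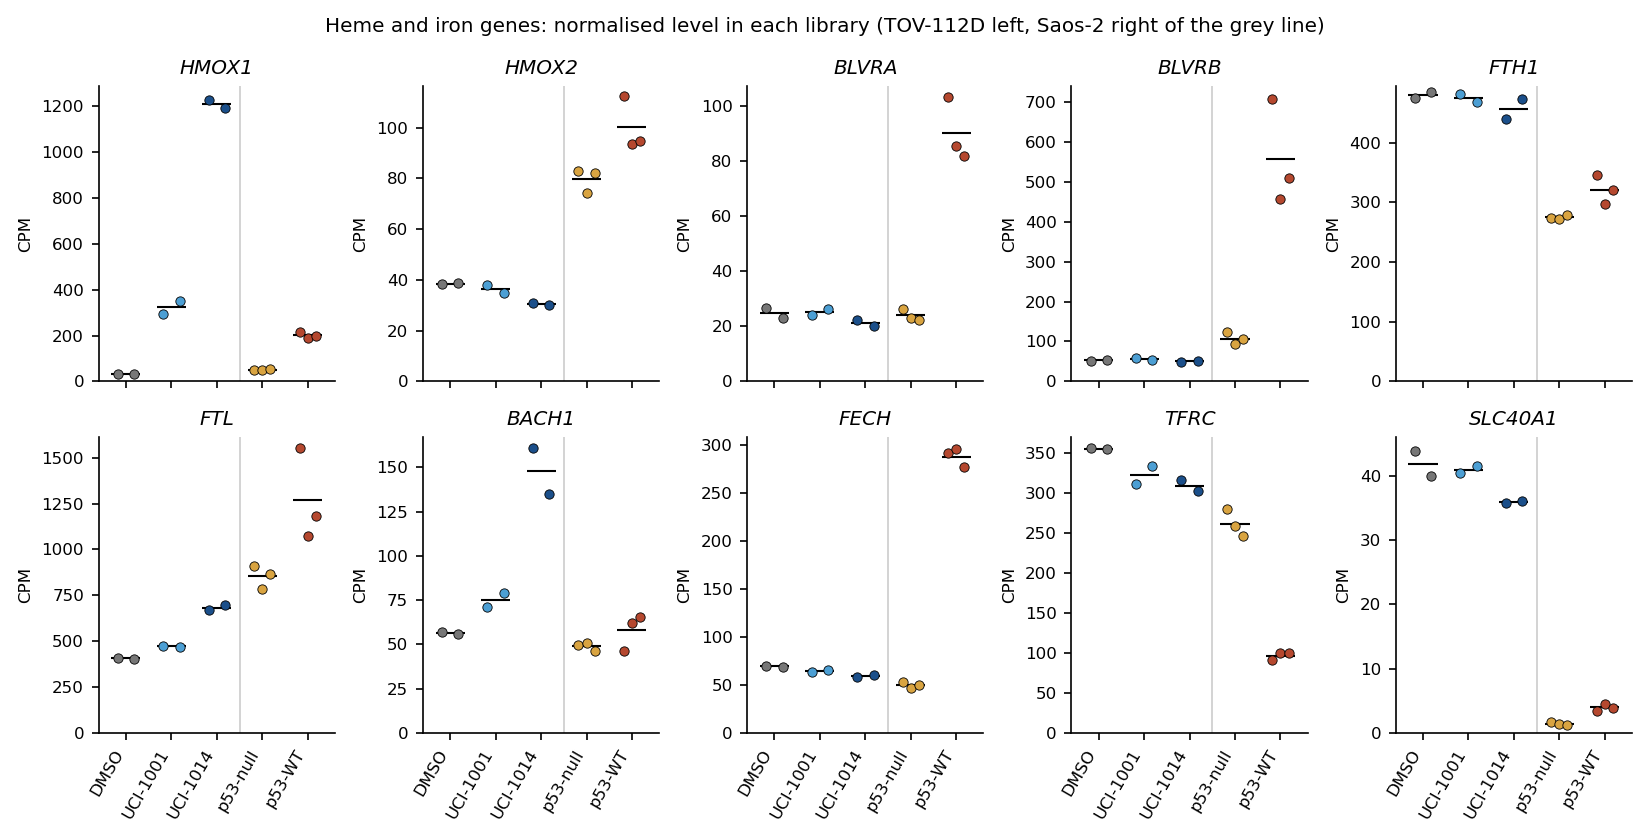
Normalised level (CPM, linear axes from 0) of the 10 genes in each of the 12 libraries, with group means as bars and TOV-112D groups to the left of the grey line. HMOX1, FTL and BACH1 rise stepwise from DMSO over UCI-1001 to UCI-1014, while BLVRA, BLVRB and FECH are high only in the p53-WT group.

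In the comparison of UCI-1001 with DMSO, 4 of the 10 genes passed the threshold of adjusted p under 0.05, where 15.8% of the 14174 genes tested did. HMOX1, FTL and BACH1 were higher (9.39% of all genes were) and TFRC was lower (6.36% were). With UCI-1014 the count was 7 of 10, against 47.1% of all genes, with HMOX1, FTL and BACH1 again higher (23.7% of genes) and HMOX2, FECH, TFRC and SLC40A1 lower (23.4%). UCI-1014 differed from UCI-1001 in 5 of 10, against 31.1%, with the same 3 genes higher (17.2%) and HMOX2 and SLC40A1 lower (13.9%). The HMOX2 call between the analogs was lost in 5 of 16 alternative settings, among them without UCI-1001 replicate 1 (adjusted p = 0.134) and without UCI-1014 replicate 2 (0.0587). In Saos-2, 8 of 10 differed between p53-WT and p53-null, against 66.5% of 14272 genes, with 7 higher (33.5%) and TFRC alone lower (33% of genes). Groups did not overlap in 7, 10, 8 and 9 of the 10 genes in these comparisons, where 57.4%, 73.4%, 63.7% and 70.7% of all genes did not. Without replicate 1 all 10 genes passed in Saos-2, where 37.5% of genes were higher and 36.7% lower. The median log2 fold change of the 10 genes was 0.01, -0.14, -0.09 and 1.02 in these comparisons, and that of all genes tested was 0.00, -0.02, -0.01 and -0.01. Since 7 of 10 genes called with UCI-1014 and 8 of 10 with p53-WT stand beside backgrounds of 47.1% and 66.5%, these shares are read only as descriptions of the gene set.

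**Figure D2:**
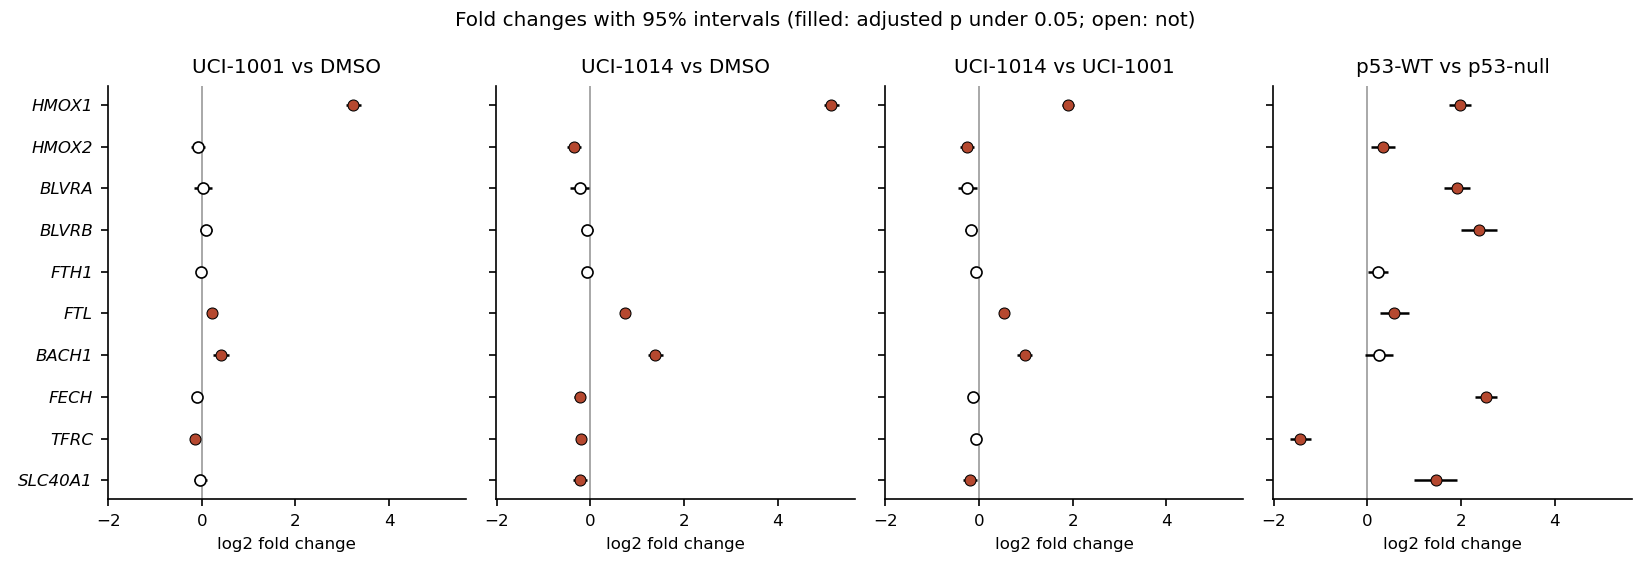
Log2 fold change with its 95% interval for each gene in the 4 comparisons, filled where the adjusted p was under 0.05. HMOX1 has the highest value in both compound columns, and FECH, BLVRB, HMOX1 and BLVRA lie between 1.91 and 2.53 in the p53-WT column.

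HMOX2 (chr16:4474690-4510347, plus strand), the constitutive heme oxygenase, did not follow HMOX1 in the treated TOV-112D cells. Its level was 38.3 and 38.8 CPM with DMSO, 37.9 and 35.0 CPM with UCI-1001, and 30.7 and 30.2 CPM with UCI-1014, the lowest of the 3 groups without overlap. The fall with UCI-1014 was -0.34 ± 0.07 on the log2 scale (adjusted p = 0.00101), and with UCI-1001 the value was -0.08 with a 95% interval of -0.22 to 0.07 (adjusted p = 0.491). With wild-type p53, HMOX2 went from 82.9, 74.1 and 82.0 CPM to 112, 93.5 and 94.9 CPM (log2 0.33 ± 0.11, adjusted p = 0.0218), and without replicate 1 the value was 0.28 (adjusted p = 0.00164). The call was lost in 3 of 15 alternative settings, among them leaving out p53-null replicate 2 (adjusted p = 0.0947) and scaling by library total (0.18, adjusted p = 0.148). The count table lists HMOX2 under 2 identifiers with identical counts in every library, which were summed. Its exons share 103 bases with NMRAL1 on the other strand, and strandedness is not given in the sources used here. FTH1 shares 1267 exon bases with BEST1 and TFRC 191 with a non-coding gene, both on the other strand. BACH1 shares 45 with GRIK1 on the other strand and 302 with the non-coding LINC00189 on the same strand.

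The balance of the oxygenases was read as the ratio of HMOX1 to HMOX2 in TPM (transcript levels corrected for length and for library size). HMOX2 was taken from its primary-assembly identifier alone. The second HMOX2 identifier held identical counts, so these TPM leave out that part and every ratio is too high for the summed gene. In CPM, which sum both, HMOX2 stood above HMOX1 with DMSO (38.3 and 38.8 against 34.2 and 34.4). The ratio was 1.23 and 1.18 in DMSO libraries, 10.2 and 13.5 after UCI-1001, and 51.3 and 51.8 after UCI-1014, with no overlap. In Saos-2 the ratio was 0.85, 0.99 and 1.04 without p53 and 2.97, 2.91 and 3.20 with p53-WT, replicate 1 first. HMOX1 TPM ordered the groups as UCI-1014 (1159), UCI-1001 (319), p53-WT (148), p53-null (44.1) and DMSO (34.7), with no overlap between neighbours. The levels of UCI-1014-treated TOV-112D and p53-WT Saos-2 come from different lines and media and were not tested against each other.

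Both biliverdin reductases were higher with p53-WT, and neither passed the threshold with a compound. BLVRB (chr19:40447765-40465764, minus strand) measured 123, 93.3 and 106 CPM in p53-null libraries and 707, 456 and 509 CPM in p53-WT libraries. The rise was 5.18-fold (log2 2.37 ± 0.17, adjusted p = 4.25e-07), and 2.28 on the log2 scale without replicate 1, whose p53-WT library was the highest of its group. In TOV-112D BLVRB stayed between 49.0 and 57.7 CPM, with log2 fold changes of 0.08 (95% interval -0.04 to 0.21) for UCI-1001 and -0.08 (-0.21 to 0.05) for UCI-1014. Under scaling by library total the UCI-1014 value passed, at -0.21 (adjusted p = 0.00791).

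BLVRA (chr7:43758680-43807342, plus strand) measured 26.4, 23.0 and 22.4 CPM in p53-null and 103, 85.5 and 81.9 CPM in p53-WT libraries. It was 3.77-fold higher with p53-WT (log2 1.91 ± 0.13, adjusted p = 1.84e-07, and 1.89 without replicate 1). In TOV-112D it ranged from 20.2 to 26.6 CPM, and its values of 0.03 with UCI-1001 and -0.22 with UCI-1014 did not pass (adjusted p = 0.887 and 0.0661). The latter passed in 3 of 15 alternative settings, with -0.33 without DMSO replicate 2 (adjusted p = 0.029) and -0.36 under scaling by library total. In p53-WT cells BLVRA-205, a 324-base retained-intron transcript, was estimated at 95.5, 88.0 and 91.6 TPM, whereas it did not exceed 1.86 TPM in any of the other 9 libraries. The coding transcript BLVRA-201 rose as well, from 36.8, 37.2 and 33.2 TPM to 94.5, 100.1 and 94.3 TPM. Because BLVRA-205 is short, it made up 14.0%, 13.0% and 14.2% of the estimated BLVRA counts in the p53-WT libraries, and the gene's TPM rose more (37.7 to 195) than its counts.

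The light chain of ferritin was called in all 4 comparisons and the heavy chain in none. FTL (chr19:48965309-48966879, plus strand) measured 409 and 404 CPM with DMSO, 474 and 470 CPM with UCI-1001, and 669 and 695 CPM with UCI-1014, again without overlap. The rise was 1.16-fold with UCI-1001 (log2 0.21 ± 0.04, adjusted p = 7.57e-04) and 1.68-fold with UCI-1014 (log2 0.75 ± 0.03, adjusted p = 3.94e-10). UCI-1014 exceeded UCI-1001 by 0.53 ± 0.03 on the log2 scale (adjusted p = 4.83e-08). The UCI-1001 call was lost when all 12 libraries shared one estimate of the spread (adjusted p = 0.707). With wild-type p53 FTL went from 912, 785 and 864 CPM to 1554, 1074 and 1181 CPM (log2 0.57 ± 0.14, adjusted p = 0.0044), and to 0.46 (adjusted p = 2.6e-05) without replicate 1.

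FTH1 (chr11:61959718-61967634, minus strand) did not pass in any of the 4 comparisons under TMM scaling. It measured 475 and 484 CPM with DMSO, 481 and 468 CPM with UCI-1001, and 439 and 472 CPM with UCI-1014. The 95% intervals were -0.10 to 0.07 for UCI-1001 and -0.16 to 0.01 for UCI-1014, which exclude a rise as large as that of FTL with UCI-1014. FTH1 fell with UCI-1014 under scaling by library total (-0.21, adjusted p = 4.43e-04) and without UCI-1014 replicate 2 (-0.12, adjusted p = 0.0269). In Saos-2 FTH1 was 274, 272 and 279 CPM without p53 and 346, 297 and 321 CPM with p53-WT (log2 0.23 ± 0.10, adjusted p = 0.067). The groups did not overlap in CPM, and the call was gained in 5 of 15 alternative settings, among them leaving out replicate 1 (0.17, adjusted p = 0.0137). On TPM the group means were 613 ± 51.5 and 611 ± 39.3 (SD, n = 3), and the sign turned (-0.0048 in limma on TPM, adjusted p = 0.973). FTH1 and FTL have many processed pseudogenes, and rows of the table named for them held at most 0.335% of the FTH1 and 0.0457% of the FTL level.

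**Figure D3:**
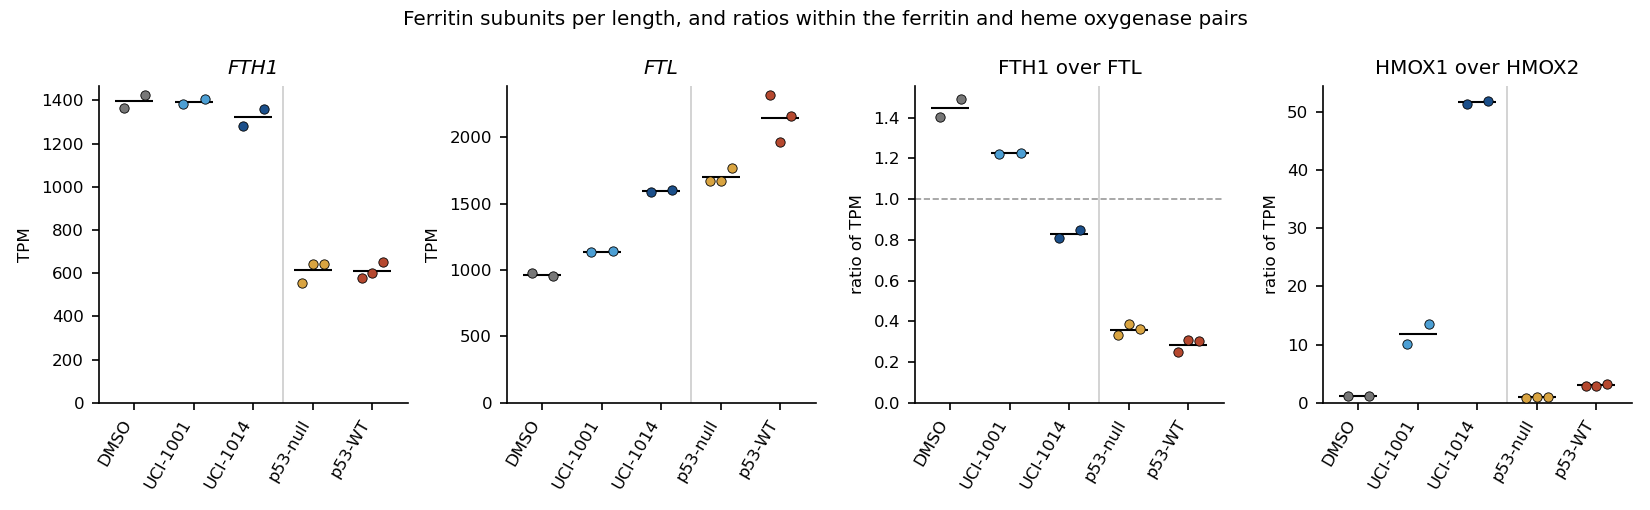
FTH1 and FTL in TPM, the ratio of FTH1 to FTL, and the ratio of HMOX1 to HMOX2 in each library (linear axes from 0, bars are group means, the dashed line marks equal TPM). HMOX2 is taken from its primary-assembly identifier alone, which makes the HMOX1 to HMOX2 ratio too high for the summed gene. In TOV-112D FTH1 stays near 1321 to 1395 TPM while FTL climbs from 964 to 1596 TPM, which takes the FTH1 to FTL ratio below 1.

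The ratio of FTH1 to FTL in TPM did not overlap between the TOV-112D groups. It was 1.40 and 1.49 in DMSO libraries, 1.22 and 1.23 after UCI-1001, and 0.81 and 0.85 after UCI-1014. The order of the subunits turned over with UCI-1014, where FTL passed FTH1. Saos-2 was FTL-rich in both states, with ratios of 0.33, 0.39 and 0.36 without p53 and 0.25, 0.31 and 0.30 with p53-WT, replicate 1 first. The summed ferritin level was 2359 ± 24.0 TPM in DMSO libraries, 2534 ± 22.8 TPM after UCI-1001 and 2918 ± 68.2 TPM after UCI-1014 (SD, n = 2 each). The kallisto estimates also split FTH1 differently in the lines. FTH1-212 was given 38.0% to 40.7% of the estimated FTH1 counts in TOV-112D libraries and 59.2% to 68.1% in Saos-2 libraries. The FTH1 transcript models overlap, and these shares carry no test. The same split enters the FTH1 TPM and the ratios compared between the lines.

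BACH1 (ENSG00000156273, chr21:29194071-29630751, plus strand), the repressor of HMOX1, rose with HMOX1 in the treated TOV-112D cells. Its level was 57.2 and 55.6 CPM with DMSO, 71.2 and 78.9 CPM with UCI-1001, and 161 and 135 CPM with UCI-1014. No group overlapped another. The rise was 1.33-fold with UCI-1001 (log2 0.41 ± 0.08, adjusted p = 0.00244) and 2.62-fold with UCI-1014 (log2 1.39 ± 0.08, adjusted p = 1.86e-09). The analogs differed by 0.98 ± 0.07 (adjusted p = 1.91e-07). The UCI-1001 call was lost in 2 of 15 alternative settings, the fit of all 12 libraries together (adjusted p = 0.303) and limma on TPM (adjusted p = 0.139). In Saos-2 BACH1 was 49.4, 50.8 and 46.2 CPM without p53 and 46.1, 61.8 and 65.7 CPM with p53-WT, and the groups overlapped (log2 0.25 ± 0.14, adjusted p = 0.134). Replicate 1 decides this value: without it BACH1 passed at 0.40 (adjusted p = 2.03e-04), and without p53-WT replicate 1 alone at 0.39 (adjusted p = 0.00335).

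The kallisto estimates split BACH1 among transcripts with different starts. BACH1-201 was at 4.87 and 5.97 TPM with DMSO, 11.6 and 11.4 TPM with UCI-1001, and 26.2 and 22.8 TPM with UCI-1014. BACH1-202 was at 10.7 and 9.10, 7.92 and 9.87, and 16.3 and 12.5 TPM in the same libraries, so its DMSO and UCI-1001 groups overlapped. The share of estimated BACH1 counts given to BACH1-201 was 29.9% and 38.7% in DMSO libraries, 57.4% and 51.8% after UCI-1001, and 59.0% and 62.0% after UCI-1014. A shorter form, BACH1-204, went from 4.65 and 1.50 TPM with DMSO to 16.8 and 13.6 TPM with UCI-1014. The split between the 2 long forms rests on little sequence in GENCODE release 44. There only 32 bases of BACH1-201 and 183 bases of BACH1-202 are absent from the other. BACH1-201 has 5618 bases in that release but 5669 in the estimates, so the count for the quantified form was not determined. These transcript values carry no test.

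**Figure D4:**
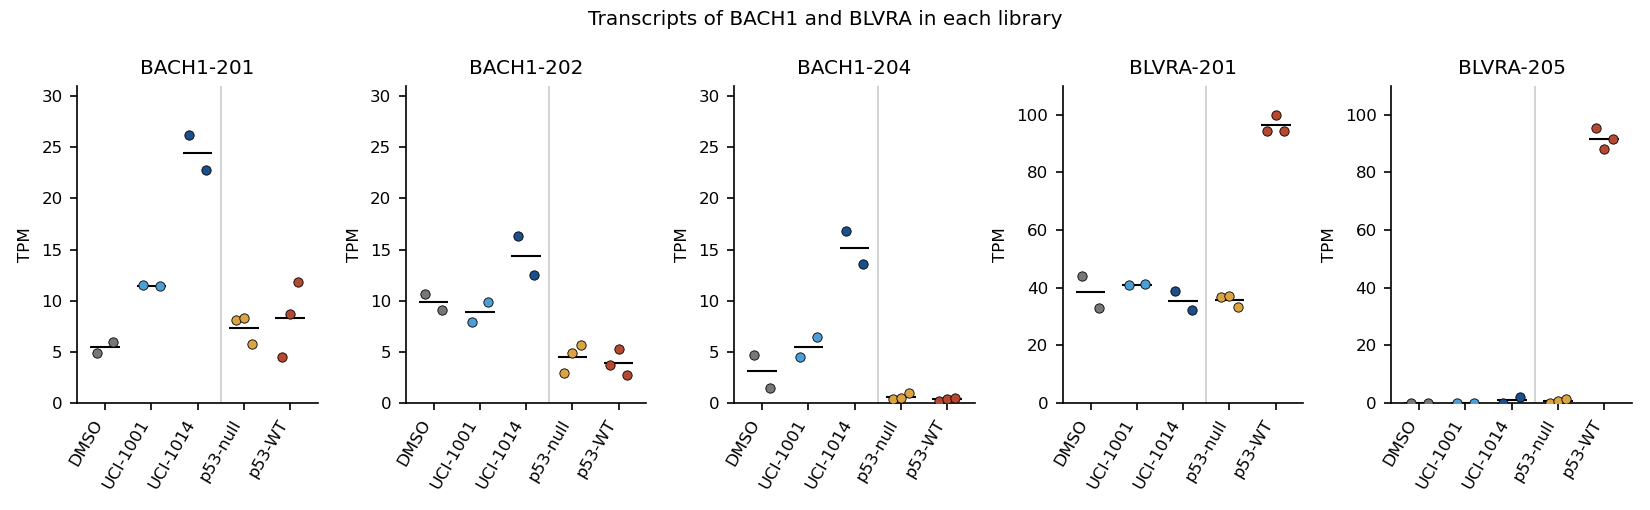
Estimated level (TPM) of 3 BACH1 and 2 BLVRA transcripts in each library, with group means as bars and the same axis within a gene. BACH1-201 rises at both steps in TOV-112D, BACH1-202 does not separate DMSO from UCI-1001, and BLVRA-205 is present in the p53-WT group at 88.0 to 95.5 TPM.

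The starts of these forms are shown because the forms differ there. RefSeq promoter windows (GRCh38.p14, 250 bases before to 50 after the start) were found for 8 of the 10 genes, in 11 windows, and 3 of them belong to BACH1. One starts at the annotated first base of BACH1-201 and the next lies 41 bases upstream of the start of BACH1-202. The 250 bases before each start are printed, the first from chr21:29298672-29298921 and the second from chr21:29299125-29299374, both plus strand. Capitals mark TGAGTCA, the site of AP-1 and CNC-type factors. It lies 48 bases before the BACH1-201 start and was not matched in the BACH1-202 window.
BACH1-201 promoter: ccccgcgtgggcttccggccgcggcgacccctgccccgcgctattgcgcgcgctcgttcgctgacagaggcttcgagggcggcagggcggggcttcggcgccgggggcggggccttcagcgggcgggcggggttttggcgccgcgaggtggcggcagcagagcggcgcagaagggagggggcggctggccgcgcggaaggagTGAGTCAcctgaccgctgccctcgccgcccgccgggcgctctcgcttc
BACH1-202 promoter: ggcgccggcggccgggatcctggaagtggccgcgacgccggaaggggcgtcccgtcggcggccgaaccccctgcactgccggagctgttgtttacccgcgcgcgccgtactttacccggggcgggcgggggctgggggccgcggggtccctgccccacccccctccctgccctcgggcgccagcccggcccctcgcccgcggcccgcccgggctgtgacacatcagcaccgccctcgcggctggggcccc

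TGAGTCA was present on either strand in 4.95% of 35116 promoter windows, and among the genes studied in the BACH1-201 window alone. The antioxidant response element core TGACNNNGC was matched in FECH only (13.3% of all windows), the heat shock type pair TTCNNGAA in FTL only (7.74%), its counterpart GAANNTTC in none (6.77%), and the E-box CACGTG in HMOX2 only (7.26%). No match in these windows overlapped another. HMOX1 and FTH1 had no window in the table used here. A match is a description of these letters and shows no binding.

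FECH (chr18:57544377-57586732, minus strand), which closes heme synthesis, had the highest p53-WT fold estimate of the set, with an interval that overlaps that of BLVRB (log2 2.30 to 2.76 and 1.99 to 2.76). It measured 53.1, 46.5 and 49.8 CPM in p53-null libraries and 291, 295 and 276 CPM in p53-WT libraries. The rise was 5.77-fold (log2 2.53 ± 0.10, adjusted p = 5.49e-09) and 2.57 on the log2 scale without replicate 1. Both long coding forms rose, FECH-201 from 8.70, 10.5 and 9.28 TPM to 29.1, 50.7 and 46.1 TPM and FECH-202 from 13.7, 10.3 and 13.7 TPM to 63.9, 69.3 and 67.4 TPM. In TOV-112D FECH moved the other way with UCI-1014, from 70.0 and 68.9 CPM to 58.3 and 60.2 CPM (log2 -0.23 ± 0.05, adjusted p = 0.00267), a call lost in 1 of 15 alternative settings, limma on TPM (adjusted p = 0.0959). With UCI-1001 it was at 63.7 and 65.8 CPM (log2 -0.10, 95% interval -0.21 to 0.01, adjusted p = 0.224).

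TFRC (chr3:196012511-196082153, minus strand), the iron importer, was the only gene of the set that fell with p53-WT. It dropped from 279, 258 and 246 CPM to 91.0, 99.4 and 99.2 CPM, to 0.37 of its p53-null level (log2 -1.44 ± 0.10, adjusted p = 3.34e-07, and -1.34 without replicate 1). In TOV-112D its level was 356 and 354 CPM with DMSO, 311 and 334 CPM with UCI-1001, and 316 and 302 CPM with UCI-1014. The falls were -0.14 ± 0.04 with UCI-1001 (adjusted p = 0.0344) and -0.20 ± 0.04 with UCI-1014 (adjusted p = 0.00105), and the analogs overlapped (-0.06, 95% interval -0.15 to 0.03). The UCI-1001 call was lost in 8 of 15 alternative settings, including without DMSO replicate 1 (adjusted p = 0.208), without DMSO replicate 2 (0.182) and without UCI-1001 replicate 1 (0.248). The UCI-1014 call was lost in 2 of 15, the fit of all 12 libraries (adjusted p = 0.0525) and limma on TPM (0.0916).

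SLC40A1 (chr2:189560590-189583758, minus strand), the iron exporter, differed in level between the cell lines. It lay between 35.7 and 43.9 CPM in TOV-112D and between 1.27 and 4.53 CPM in Saos-2. In Saos-2 the p53-null libraries held 1.66, 1.37 and 1.27 CPM and the p53-WT libraries 3.46, 4.53 and 3.88 CPM, a rise of 1.46 ± 0.21 on the log2 scale (adjusted p = 8.32e-05; 1.67 without replicate 1). With UCI-1014 it was at 35.7 and 36.2 CPM against 43.9 and 40.0 CPM with DMSO (log2 -0.22 ± 0.07, adjusted p = 0.0152). That call was lost in 5 of 15 settings, including without DMSO replicate 1 (adjusted p = 0.213) and without UCI-1014 replicate 1 (0.0687). The difference from UCI-1001 (-0.19 ± 0.07, adjusted p = 0.0485) was lost in 14 of 16 settings.

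Per length, ferritin led the set in each group. FTH1 (1395 TPM) and FTL (964 TPM) stood above BLVRB (126 TPM) and TFRC (116 TPM) with DMSO, and BACH1 was lowest at 21.6 TPM. HMOX1 moved from place 7 of 10 with DMSO to place 3 with UCI-1001 and stayed at 3 with UCI-1014, where its 1159 TPM came close to the 1321 TPM of FTH1. In this ranking HMOX2 was again taken from its primary-assembly identifier alone (28.8 TPM with DMSO, against 34.7 TPM for HMOX1). The second HMOX2 identifier held identical counts, so with both counted HMOX1 would rank lower with DMSO. In p53-null cells HMOX1 held place 6 and SLC40A1 the last, at 0.60 TPM. In p53-WT cells FTL (2148 TPM) was followed by BLVRB (950 TPM) and FTH1 (611 TPM), and TFRC fell to place 8.

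Likeness to the HMOX1 profile over the 12 libraries was ranked by Pearson's r of log2(CPM + 1), after the control mean of each line was subtracted. The 11147 genes ranked had a symbol, were tested in both lines and averaged at least 1 CPM in every group. Highest among them were BAG3, an HSP70 co-chaperone (r = 0.998), ATF3, a stress-induced transcription factor (0.994), TUFT1 (0.992), KLHL25 (0.991) and PTGS2, which encodes cyclooxygenase-2 (0.985). BAG3 had log2 fold changes of 2.98 with UCI-1001, 4.80 with UCI-1014 and 1.59 with p53-WT. Among the 10 genes themselves BACH1 (r = 0.894, rank 180) and FTL (0.774, rank 536) came closest to HMOX1, and HMOX2 had the lowest coefficient (r = -0.44). The libraries share lines, controls and treatments, so these coefficients describe the profiles and carry no p.

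The neighbouring pathways were described through 6 gene lists with 73 genes. Each count of called genes reads against the shares over all genes: 9.39% higher and 6.36% lower with UCI-1001, 23.7% higher and 23.4% lower after UCI-1014, 17.2% and 13.9% for UCI-1014 against UCI-1001, and 33.5% and 33% with p53-WT (37.5% and 36.7% without replicate 1).

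Of 7 tested genes in the list of NRF2 and BACH partners and regulators, 3 were higher with UCI-1001 and 5 with UCI-1014, 1 was lower with UCI-1014, and the list medians were 0.10 and 0.38 on the log2 scale. MAFF, a small MAF protein that pairs with BACH1 and NRF2, went from 4.98 ± 0.61 CPM with DMSO to 32.3 ± 4.87 CPM with UCI-1001 and 137 ± 0.16 CPM with UCI-1014 (SD, n = 2; log2 2.69 and 4.77, adjusted p = 2.63e-09 and 1.07e-13). MAFG rose by 0.51 and 1.13, and NFE2L2, which encodes NRF2, by 0.34 and 1.04 on the log2 scale. In p53-WT cells 3 of 8 genes were lower, near the 33% of all genes, and none was higher. They were MAFF (-0.83), MAFG (-0.70) and CUL3, part of the ligase that degrades NRF2 (-0.53), while the small MAF gene MAFK did not pass (-0.10, adjusted p = 0.496). Without replicate 1 the lower genes were 6 of 8, with MAFF at -0.84, MAFG at -0.78 and CUL3 at -0.39 on the log2 scale.

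NRF2-linked antioxidant genes rose in 6 of 13 tested with UCI-1001 and in 9 of 13 with UCI-1014, where 2 were lower, beside 9.39% and 23.7% of all genes higher, and their medians were 0.37 and 1.07. GCLM, the modifier subunit of glutamate-cysteine ligase, was 0.79 ± 0.07 higher with UCI-1001 and 2.05 ± 0.06 with UCI-1014 on the log2 scale (adjusted p = 1.23e-06 and 2.68e-12). SLC7A11, the cystine importer, rose by 0.59 with UCI-1001 and 1.07 with UCI-1014. SRXN1, which reduces oxidised peroxiredoxins, rose by 0.40 with UCI-1001 and 1.84 with UCI-1014. OSGIN1 rose by 1.41 and 2.61, from only 0.73 CPM with DMSO. UCI-1014 exceeded UCI-1001 in 6 of the 13 genes and was lower in 2. With p53-WT, 5 were higher and 3 lower with a median of 0.00, SRXN1 (-1.05) and SLC7A11 (-0.68) fell, and AKR1B10, an aldo-keto reductase, went from 0.15 to 17.0 CPM. Without replicate 1, 5 were higher and 4 lower, with SRXN1 at -0.98 and SLC7A11 at -0.50.

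**Figure D5:**
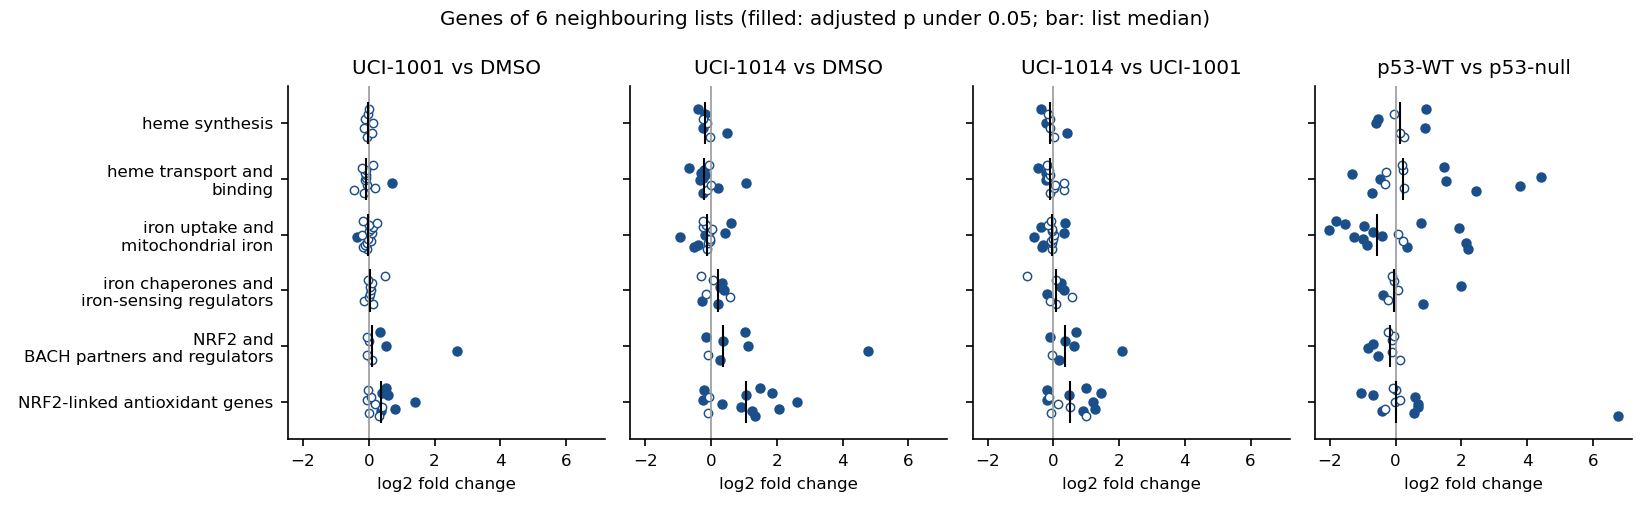
Log2 fold change of each tested gene in the 6 lists (rows) for the 4 comparisons (columns), filled where the adjusted p was under 0.05, with the list median as a bar. The NRF2-linked row has its median at 0.37 with UCI-1001 and at 1.07 with UCI-1014, and at 0.00 with p53-WT.

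With UCI-1001 none of the 7 tested genes of the upstream steps of heme synthesis passed. With UCI-1014, ALAS1, the rate-limiting enzyme, was higher (54.4 ± 0.83 to 76.6 ± 1.69 CPM, log2 0.49 ± 0.05, adjusted p = 3.34e-06), and 3 genes were lower, among them UROS (-0.38) and CPOX (-0.23). Against UCI-1001, UCI-1014 gave higher ALAS1 (0.40), and 2 genes were lower, among them UROS (-0.39). With p53-WT, UROS (0.91) and CPOX (0.90) were higher and 2 genes lower, so 4 of 7 were called where 66.5% of all genes were. Without replicate 1 the counts were the same, with UROS at 0.90 and CPOX at 0.96. The list medians were -0.03, -0.20, -0.10 and 0.12 in the 4 comparisons.

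Of 12 tested genes of heme transport and binding, 1 was higher with UCI-1001, and 2 were higher and 7 lower with UCI-1014. The shares higher are near or under those of all genes (9.39% and 23.7%), and 23.4% of all genes were lower with UCI-1014. FLVCR2, a transporter of the heme exporter family, rose by 0.71 and 1.05 on the log2 scale, from 3.23 CPM with DMSO. SLC46A1, a folate and heme carrier, fell by 0.67 and HEBP1, a heme-binding protein, by 0.35 with UCI-1014, and both were also lower than with UCI-1001, as was PGRMC2 (-0.21), with no gene of the list higher. With p53-WT, 5 of 13 were higher and 3 lower. ABCG2, an efflux pump for porphyrins among other substrates, went from 3.59 ± 0.91 to 49.7 ± 1.12 CPM (SD, n = 3; log2 3.79 ± 0.17, adjusted p = 9.18e-09), and ABCB6, a porphyrin transporter, from 6.71 to 37.0 CPM (log2 2.46). HPX, which encodes hemopexin, was at 0.06 and 1.42 CPM, too few counts for a fold. Without replicate 1, 6 were higher and 3 lower, with ABCG2 at 3.95 and ABCB6 at 2.28. The list medians were -0.09, -0.20, -0.12 and 0.22.

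Of 15 tested genes of iron uptake and mitochondrial iron, 1 was lower with UCI-1001, SLC25A28, which encodes mitoferrin-2 (log2 -0.37, adjusted p = 0.0495). With UCI-1014, 2 were higher and 4 lower, among them SLC25A28 (-0.96), while TF, transferrin, rose by 0.60. These 6 of 15 lie under the 47.1% of all genes called. Against UCI-1001 the counts were again 2 higher and 4 lower, with TF at 0.36, SLC25A28 at -0.59 and STEAP2 at -0.38. With p53-WT, 5 of 16 were higher and 9 lower, and CYBRD1, a ferric reductase (2.21), and ISCU, the scaffold of iron-sulfur assembly (2.14), stood against STEAP1 (-2.02). Without replicate 1, 6 were higher and 9 lower, with CYBRD1 at 2.30, ISCU at 2.22 and STEAP1 at -1.86. The list medians were -0.03, -0.11, -0.05 and -0.56.

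Among the iron chaperones and iron-sensing regulators, none of 9 tested genes passed with UCI-1001, and 4 were higher and 1 lower with UCI-1014, where 23.7% and 23.4% of all genes were. IREB2, which encodes iron regulatory protein 2, rose by 0.39 ± 0.05 (adjusted p = 1.11e-05), and PCBP1, a chaperone that delivers iron to ferritin, by 0.33 ± 0.03 (adjusted p = 1.64e-06). FBXL5, the iron-sensing ligase subunit that degrades iron regulatory proteins, was lower (-0.27, adjusted p = 0.0163). Against UCI-1001, 3 were higher, IREB2 (0.32), PCBP1 (0.23) and NCOA4 (0.23), and 1 was lower. With p53-WT, 2 of 7 were higher and 1 lower: NCOA4, the ferritinophagy receptor, went from 138 ± 18.4 to 546 ± 9.42 CPM (SD, n = 3; log2 1.99 ± 0.12, adjusted p = 8.16e-08), ACO1, the source of iron regulatory protein 1, rose by 0.82, and HFE fell by 0.37. These 3 of 7 lie under the 66.5% of all genes called. Without replicate 1, 3 were higher and 2 lower, with NCOA4 at 2.11, ACO1 at 0.81 and HFE at -0.33. The list medians were 0.05, 0.21, 0.09 and -0.04.

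Markers of cells known for heme turnover were also read. The sum of 8 erythroid markers was 0.25 to 1.89 CPM in any library, with HBB at 0 in all of them. The sum of 6 macrophage markers rose with UCI-1014, from 37.7 to 38.6 CPM with DMSO to 58.4 to 64.5 CPM. CD68, a lysosomal gene that many cell types express, made up 56.3 to 61.6 CPM of the UCI-1014 sum and PTPRC averaged 2.05 CPM, while CD14, CD163 and LYZ stayed under 0.5 CPM and CSF1R was at 0 there. The part of these genes in the results was not tested. In Saos-2 the macrophage sum was 90.4 to 100.2 CPM without and 91.3 to 111 CPM with p53-WT.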

How the data were processed

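RNA sequencing of 12 libraries was quantified by the authors with kallisto 0.48.0 on GRCh38, per their methods and the labels; the transcript annotation release is not given in the sources used here. The deposited gene table holds counts made by adding the estimated counts of the transcripts of each Ensembl gene and converting the sums to integers; the authors used DESeq2 1.38.3 on them. The deposited transcript files hold expected (estimated) counts and TPM per library. Here counts of identifiers with the same symbol were summed (40295 identifiers to 36482 rows, 8043 identifiers without a symbol kept as their own), and transcripts were tied to genes by GENCODE release 44, which covered 87.2% of them.

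Each cell line was fitted by itself with edgeR 4.0.16 in R 4.3.3: TMM scaling, the default filter on low counts, the quasi-likelihood test and Benjamini-Hochberg adjustment over all genes tested, with a call at adjusted p under 0.05. CPM are TMM-scaled. All 10 genes passed the filter in both lines. Intervals are 95% intervals of the fit. Depth was 17762027 to 24629558 counts a library, where 3 counts are 0.122 to 0.169 CPM, and intervals cover the spread between libraries only. The test was checked on counts simulated with known changes and its own fitted spread, for UCI-1001 against DMSO and p53-WT against p53-null. That check does not cover an outlying replicate or the choice of scaling. TPM served for comparisons between genes and transcripts, with no test; transcripts with at least 5% of a gene's TPM in a library were listed. Alternatives were DESeq2 1.42.0, limma 3.58.1 on log2(TPM + 1), other scalings and filters, single identifiers, pooled fits, a replicate block and leaving out libraries. The 10 genes, the 6 lists and the markers were chosen with earlier results of these data known, so no list is independent support. All 10 genes are named in each comparison, and from each list up to 3 genes with the largest called change per comparison, except a few items that are not reported here; genes of the marker lists and single transcripts were named after their values were seen. Sequences came from GENCODE transcripts and from RefSeq promoters (GRCh38.p14).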

Additional observations from a re-analysis of the deposited data

How the results depend on the processing

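Of 610 values of the 10 genes under alternative settings 8 took the other sign, and none of these was called in either fit. HMOX1 kept its call and direction in every alternative run in the 4 comparisons, with log2 ranges of 3.10 to 3.36 (UCI-1001), 5.01 to 5.17 (UCI-1014), 1.79 to 2.05 (between the analogs) and 1.73 to 2.05 (p53-WT). FTL and BACH1 kept theirs with UCI-1014 and between the analogs. For UCI-1001 against DMSO, the 2233 genes called became 1138 with DESeq2, 309 with all 12 libraries in 1 fit and 194 with limma on TPM, and the 4 of the 10 genes became 1 with all 12 libraries and 2 with limma on TPM. For UCI-1014 against DMSO, 6675 became 3418 with all 12 libraries and 4015 with limma on TPM, where 4 of the 10 genes passed. Between the analogs, 4409 became 2639 with DESeq2, 937 with all 12 libraries and 1682 with limma on TPM. The 5 of the 10 genes became 3 with DESeq2 and with all 12 libraries. Under scaling by the library total they became 10, where 6069 of the 14174 genes tested were called between the analogs. The cause was not tested; the fit of all 12 libraries takes in the wider spread of Saos-2 (biological coefficient of variation 12.3% against 3.59%).

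Leaving out single libraries gave 952 to 2540, 5058 to 6634, 3008 to 3803 and 8595 to 10680 genes in the order above with p53-WT last (10680 without replicate 1 of both Saos-2 groups), and 3 to 4, 6 to 8, 3 to 4 and 7 to 10 of the 10 genes. The lowest UCI-1001 counts came without DMSO replicate 1 (952), DMSO replicate 2 (1022) and UCI-1001 replicate 2 (1187). Where a group was left with 1 library, it was assumed to vary like the others.

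Scaling by library total, chosen after seeing the data, moved the median of all genes to -0.15 with UCI-1014, -0.13 between the analogs and -0.16 with p53-WT, and higher calls from 50.4% to 30.1%, 55.2% to 25.5% and 50.4% to 41.8%. The small falls of HMOX2, FECH, TFRC and SLC40A1 with UCI-1014 are relative to the TMM centre. Under library totals all 10 genes passed with UCI-1014, where 7877 of the 14174 genes tested were called. With limma on TPM 38.7% of p53-WT calls were higher, with the median at -0.16.

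Same-numbered libraries did not deviate together in every pair (r = 0.23, 0.40 and 0.02 in Saos-2), so the replicate numbers were not taken as pairs. With the replicate number as a block, 1774, 6306, 3880 and 9814 genes were called. Same-numbered UCI-1001 and UCI-1014 libraries had r = -0.27. A crossed replicate block on these 2 groups alone, added after seeing this, called 5440 genes and 7 of the 10. Without a block, the fit of these 2 groups called 3845 genes and 4 of the 10. The crossing was picked from the same libraries, so its larger counts are no independent support. With 2 libraries a group, small changes such as those of TFRC and SLC40A1 are near the limit of what the spread resolves.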
